A study of Homo sapiens with 12 samples.

Results

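The HCC4006 samples are 4 of the 12 libraries of a bulk RNA sequencing study of drug-treated lung cancer cells, and were chosen by cell line. HCC4006 is an established human non-small cell lung cancer line whose growth depends on a mutant EGFR, a receptor tyrosine kinase. The 2 control libraries come from cells given the solvent DMSO for 24 hours. The 2 libraries labelled dormant come from cells kept for 2 weeks in 100 nM osimertinib, which blocks EGFR, plus 30 nM trametinib, which blocks the kinase MEK. Plates were set up in duplicate, controls in smaller dishes than dormant cells, so the effects of drug, time and dish cannot be told apart. No source says that the plates were separate cultures, and p-values then measure only the spread between these samples, which may be technical. The other 8 libraries hold PC9 and HCC827, EGFR-mutant lines given the same treatments, and enter here through the shared estimate of spread and 1 comparison between lines.

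EGFR passes its signal through RAS, RAF and MEK to the kinase ERK, which induces cyclin D1 and a set of its own inhibitors, among them the DUSP phosphatases. The pair of drugs acts on this route at 2 points. YAP is a coactivator that enters the nucleus when the Hippo kinases are inactive and switches on genes together with the TEAD transcription factors. Its targets include CTGF, CYR61 and ANKRD1, and the study's title concerns YAP and the control of cell death genes. Matrix and collagen genes are usually the work of fibroblasts, and carcinoma cells can express some of them.

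Levels are the FPKM values that the authors deposited, which count fragments per length of gene and per size of library. A difference is the dormant mean less the DMSO mean of log2(FPKM + 1), given with its standard error (SE). A gene was called when the p-value of limma, adjusted by Benjamini-Hochberg over all 14699 genes tested, was below 0.05. Adding 1 makes differences of low genes smaller than the ratio of their levels. The libraries are called DMSO 1, DMSO 2, dormant 1 and dormant 2, and their levels are given in that order.

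Dormant 2 stood apart from the other libraries. GAPDH, an enzyme gene that every cell uses, was at 11709 and 8663 FPKM in the DMSO libraries, 3755 in dormant 1 and 6.73 in dormant 2. Transfer RNAs of the mitochondrion took 20.0% of the summed FPKM of dormant 2 and 0.513% to 0.604% of the other HCC4006 libraries, and 1948 tested genes were listed at 0 there against 368 to 480. Over the tested genes (genes are no replicates of each other), log2 levels of both dormant libraries correlated at a Pearson r of 0.654, and those of both DMSO libraries at 0.979. By the spacing of low FPKM values, a rough measure of reads, the 2 value columns of dormant 2 had 38.2% and 13.9% as many reads as the first PC9 DMSO library, while the columns of the other HCC4006 libraries had 78.5% to 82.4%.

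**Figure D1:**
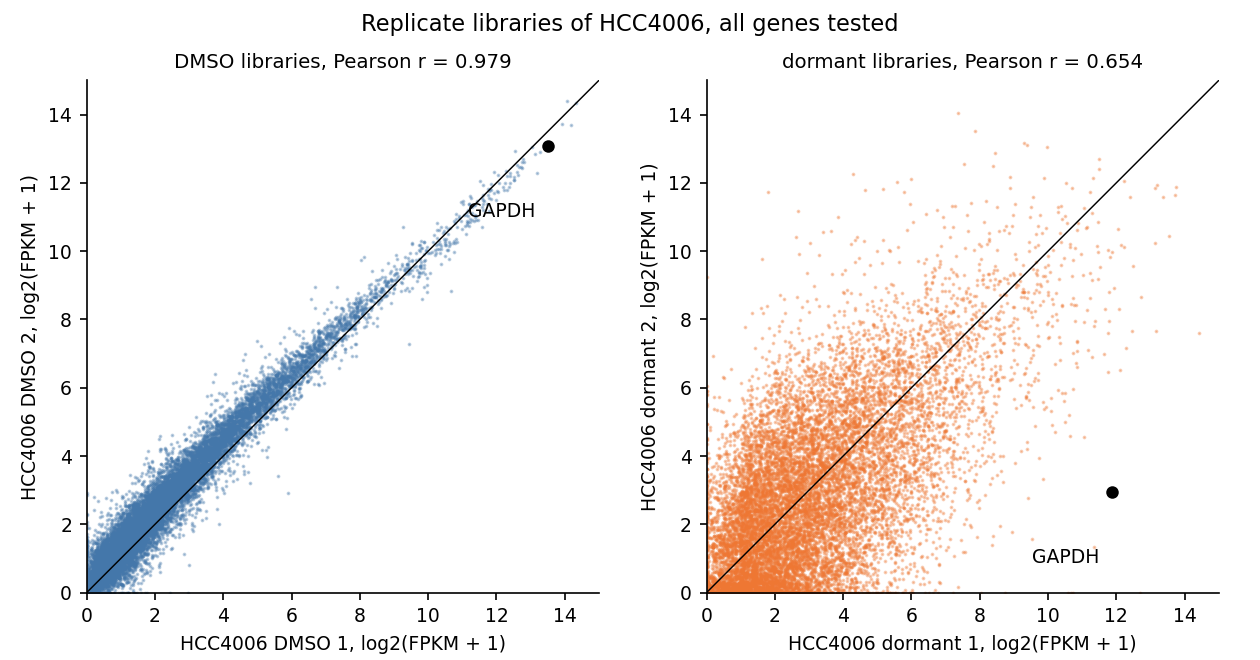
Levels of all tested genes, as log2(FPKM + 1), in DMSO 1 against DMSO 2 (left) and in dormant 1 against dormant 2 (right), 1 point per gene, with the line of equality. The DMSO libraries lie along the line (r = 0.979), the dormant libraries scatter widely (r = 0.654), and GAPDH is at 3755 FPKM in dormant 1 and 6.73 in dormant 2.

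The difference of dormant 2 from DMSO also moved with the base composition and length of genes. With genes in 5 groups of equal size, in the group with the lowest GC content the median difference was 1.43 in dormant 2 and 0.47 in dormant 1, and in the group with the highest it was -0.72 and 0.23. From the group of shortest to that of longest genes the median went from -0.59 to 1.02 in dormant 2 and from -0.03 to 0.51 in dormant 1. Whether these trends play a part in the results on single genes was not tested beyond a fit with both trends removed, which called 467 rises and 385 falls. Levels are therefore given for both dormant libraries, and many but not all counts are repeated with dormant 2 left out. That leaves a single dormant HCC4006 library, so such calls take the spread of dormant cells from the other groups. The same holds for the controls where a DMSO library is left out.

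**Figure D2:**
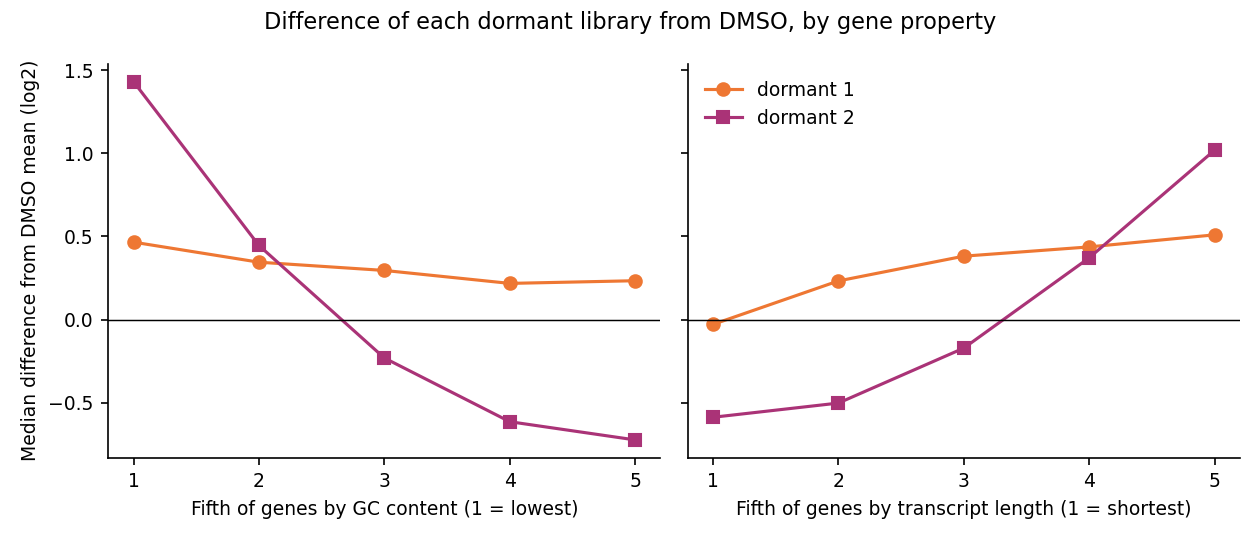
Median difference from the mean of both DMSO libraries, in log2 units, for dormant 1 and dormant 2 over 5 equal groups of the tested genes ordered by GC content (left) and by transcript length (right). Dormant 2 runs from 1.43 to -0.72 along GC content and from -0.59 to 1.02 along length, while dormant 1 stays between -0.03 and 0.51 in both panels.

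After 2 weeks of drug, the genes that rose in HCC4006 included some matrix genes, YAP targets and genes of the TGF-beta family. Those that fell included CEACAM5 and CEACAM6, 2 S100 genes and some ERK-induced and cell division genes. Of 14699 genes tested, 718 rose (4.88%) and 174 fell (1.18%), and in all of these the dormant values did not overlap the DMSO values. Values of the groups did not overlap in 30.4% of genes on the higher side and 15.8% on the lower. At an unadjusted p under 0.05 by limma, 3200 of the 14699 genes were higher and 1162 lower. With dormant 2 left out, 1270 genes (8.64%) rose and 208 (1.42%) fell. Over all tested genes the difference had a median of 0.155, which was 0.311 in dormant 1 and -0.0488 in dormant 2. Other scalings moved that median to between -0.048 and 0.284, and with median of ratios scaling 334 genes rose and 287 fell, so the excess of rises depends on scaling. The counts also rest on the control libraries: 76 genes rose and 52 fell without DMSO 1, and 234 rose and 49 fell without DMSO 2. In bulk RNA, a change in the share of cells of a type and a change of RNA per cell cannot be told apart.

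By the naming rule, the 12 largest rises were COL1A2, NTM, CCDC80, IGFBP7, UBD, COL4A4, LOX, FILIP1L, RETREG1, CTGF, ERICH5 and a gene with no symbol in the table. The 12 largest falls were CEACAM6, PRSS3, DUSP6, S100A2, RRM2, TK1, PLK1, MALL, LDHA, UBE2C and 2 pseudogenes of LDHA whose reads cannot be told from those of their parent. Of 112 named genes that were called, 35 were called again with each of the 12 libraries left out in turn. Among them are COL1A2, COL1A1, COL5A1, CCDC80, LOX, MATN2, FBLN5, CTGF, ANKRD1, BMF, NPPB, CEACAM5, CEACAM6, S100A2, PRSS3, SCGB3A1, DUSP6, PHLDA1, NT5E and G0S2. The other 77 missed the threshold with at least 1 library left out. A further limit holds for 12 named genes that reached 1 FPKM in 1 HCC4006 group and in no other group of any line, and so passed the filter on low values only through the group where they were high. They are ANKRD29, CA9, CNN1, COL4A4, FBLN5, ITGA1, LFNG, SCGB3A1, SFTPD, TNFAIP6, WNT5A and ZEB1, and their calls are given as a description. CA9, CNN1, FBLN5, SCGB3A1 and TNFAIP6 are among the 35, and for them the repeated calls are no sign of stability. Leaving out either dormant library also takes the gap between them out of the spread, so those fits are a weak check.

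**Figure D3:**
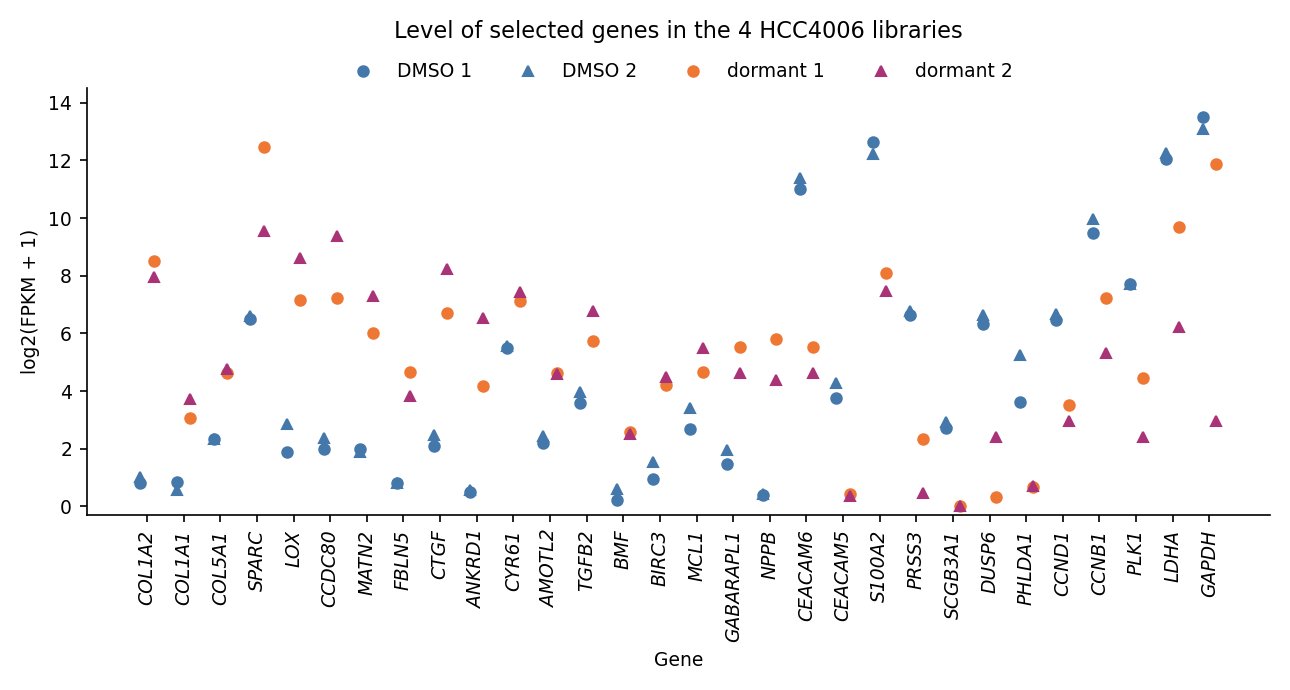
Levels of 30 genes as log2(FPKM + 1) in DMSO 1 and DMSO 2 (blue circle and triangle), dormant 1 (orange circle) and dormant 2 (purple triangle). COL1A2 stands at 0.77 and 1.04 FPKM in DMSO and at 368 and 249.6 in dormant cells, and CEACAM6 falls from 2078 and 2691 to 45.5 and 23.8. GAPDH is under both controls in dormant 1, at 3755 FPKM, and far lower in dormant 2, at 6.73.

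The genes of the extracellular matrix held the largest rise. COL1A2, a chain of type I collagen, was at 0.77 and 1.04 FPKM in DMSO and at 368 and 249.6 in dormant cells, a difference of 7.32 ± 0.36 (SE; adjusted p = 1.65e-05). Both dormant libraries lay far above both controls and close to each other. COL1A1, the partner chain, was at 0.805, 0.48, 7.45 and 12.2 FPKM (2.69 ± 0.35, adjusted p = 0.00316), a level far under that of COL1A2. COL5A1, of a collagen that joins type I fibrils, was at 3.99 and 4.04 FPKM in DMSO and at 23.6 and 26.1 in dormant cells (2.36 ± 0.30, adjusted p = 0.00272). Of 12 tested members of the collagen list, which holds some and not all collagen genes, 5 rose and none fell by limma, where 8 and 0 had an unadjusted p under 0.05. COL4A1 and COL6A1 were the others on the list. Without dormant 2 the count was 7 and 0, and without DMSO 1 or DMSO 2 it was 3. COL4A4, a basement membrane collagen outside the list, was at 0.33, 0.425, 20.5 and 199 FPKM (5.57 ± 0.78, adjusted p = 0.00383). The median of the 12 was 0.844, against 0.155 over all genes.

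LOX, an enzyme that crosslinks collagen and elastin, went from 2.67 and 6.28 FPKM to 143 and 395 (5.53 ± 0.53, adjusted p = 0.000596). CCDC80, a matrix protein that promotes cell adhesion, went from 2.98 and 4.14 to 149 and 671 (6.13 ± 0.63, adjusted p = 0.000945). In both genes dormant 2 was the higher of the dormant libraries, by over 2-fold. SPARC, a collagen-binding glycoprotein, had the opposite order, at 89.9, 96.4, 5692 and 753 FPKM (4.46 ± 0.79, adjusted p = 0.0122). MATN2, a filament-forming matrix protein, was at 2.96, 2.72, 63.2 and 154 FPKM (4.70 ± 0.57, adjusted p = 0.00219). FBLN5, which assembles elastic fibres, was at 0.74, 0.755, 24.3 and 13.3 FPKM (3.44 ± 0.31, adjusted p = 0.000507).

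Of 18 matrix glycoproteins and proteoglycans, 6 rose, the 4 named above with LAMA3 and FBLN2, and none fell (7 and 0 without dormant 2, and 3 rises without DMSO 1). At an unadjusted p under 0.05 there were 9 higher and 3 lower. The members not called ran from LAMB3, a laminin chain of epithelial basement membranes, at 275, 220.4, 77.2 and 6.16 FPKM, to HSPG2, a proteoglycan of basement membranes, at 0.415, 0.265, 0.77 and 23.1. Some matrix genes were high in dormant 1 alone. FBN1, the microfibril protein fibrillin 1, was at 9.48, 15.1, 93.5 and 10.1 FPKM and was not called (adjusted p = 0.28).

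Among proteases and their inhibitors, 3 of 12 genes rose and 1 fell (4 and 1 without dormant 2, and 1 and 1 without DMSO 1). MMP7, a matrix protease made by epithelial cells, was at 23.8, 42.7, 809.5 and 818 FPKM (4.63 ± 0.42, adjusted p = 0.00049), nearly the same in both dormant libraries. TIMP2, an inhibitor of matrix proteases, also rose. PLAT, a plasminogen activator, fell from 6.5 and 7.44 FPKM to 0.47 and 0.075 (adjusted p = 0.00291). Of the 12 genes, 4 were higher and 3 lower at an unadjusted p under 0.05 by limma, against 3200 and 1162 of all 14699. Their median was 0.188, against 0.155 over all genes, and was -0.283 with GC and length trends removed. With median of ratios scaling 1 rose and 2 fell. Of the integrins, receptors that bind matrix, ITGB6 and ITGA1 rose and ITGB5 fell, of 11 tested, and none was called without DMSO 1 or DMSO 2. ITGB6, which forms a receptor that can activate latent TGF-beta, was at 7.27, 12.4, 37.1 and 191.9 FPKM (3.03 ± 0.70, adjusted p = 0.0366). ITGA1 lost both call and direction when GC and length trends were removed (-0.17).

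The targets of YAP and TEAD included several of these secreted genes. CTGF, a secreted matricellular protein and a direct target, was at 3.27 and 4.61 FPKM in DMSO and at 104 and 303 in dormant cells (5.19 ± 0.50, adjusted p = 0.000596). ANKRD1, a nuclear and sarcomeric ankyrin protein, was at 0.42, 0.48, 17.1 and 92.1 FPKM (4.82 ± 0.63, adjusted p = 0.00307). CYR61, a relative of CTGF, was already at 44.1 and 46.5 FPKM in DMSO and reached 138 and 173 (1.75 ± 0.43, adjusted p = 0.0435). The groups did not overlap in any of the 3, as in 30.4% of all tested genes on the higher side. Dormant 2 was the higher dormant library each time.

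For a view of what lies before these genes, the 250 bases in front of the RefSeq start (GRCh38.p14) are shown for CTGF (listed there as CCN2, chr6:131951373-131951622, minus strand) and ANKRD1 (chr10:90921088-90921337, minus strand), with GGAATG, the letters that TEAD factors bind, in capitals. The motif starts 169, 104 and 95 bases before the start in CTGF, and 220 and 128 bases before it in ANKRD1.
CTGF: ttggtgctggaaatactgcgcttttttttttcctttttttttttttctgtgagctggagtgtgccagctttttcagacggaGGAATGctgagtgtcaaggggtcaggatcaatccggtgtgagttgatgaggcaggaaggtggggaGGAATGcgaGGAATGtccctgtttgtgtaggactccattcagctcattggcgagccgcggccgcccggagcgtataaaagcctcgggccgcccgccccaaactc
ANKRD1: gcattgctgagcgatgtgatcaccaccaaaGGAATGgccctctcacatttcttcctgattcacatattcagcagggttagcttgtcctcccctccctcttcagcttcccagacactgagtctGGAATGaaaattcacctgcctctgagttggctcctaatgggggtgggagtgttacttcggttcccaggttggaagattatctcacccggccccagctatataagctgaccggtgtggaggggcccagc
GGAATG or its reverse CATTCC was found in 5 of the 16 promoters of tested list members that matched RefSeq (31.2%), and in 3248 of all 27305 promoters of the same length (11.9%). Both counts describe letters and show no binding.

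Of 23 YAP and TEAD targets tested, 8 rose and 1 fell, 12 and 1 without dormant 2, and the median was 1.75. Without DMSO 1 or DMSO 2 there were 3 rises and 1 fall, and with median of ratios scaling 5 and 2. AMOTL2, a target that also restrains YAP, was at 3.59, 4.38, 23.6 and 23.3 FPKM (2.30 ± 0.40, adjusted p = 0.0111), the same in both dormant libraries. CCDC80, GADD45A, TGFB2 and AJUBA were the other rises. NT5E, which encodes the surface enzyme CD73 and is counted among the targets, went the other way, at 92.9, 75.2, 5.14 and 5.11 FPKM (-3.79 ± 0.49, adjusted p = 0.00292). AXL, a receptor kinase and a target, split the dormant libraries at 140.5, 366, 285 and 6.28 FPKM (adjusted p = 0.255). IGFBP3 and TAGLN were also high in dormant 1 alone, and CRIM1 was at 2.11, 8.53, 17.9 and 1172 FPKM, high in dormant 2.

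Of the pathway itself, YAP1 was at 0.95, 2.04, 1.49 and 23.8 FPKM, so that dormant 1 lay between the controls and dormant 2 far above (1.69 ± 0.85, adjusted p = 0.208). WWTR1, which encodes the YAP relative TAZ, was at 22.8, 22.1, 6.12 and 36.8 FPKM, with dormant 1 below and dormant 2 above DMSO (adjusted p = 0.649). TEAD1, the most abundant TEAD gene in the dormant libraries, was at 1.41, 2.76, 4.15 and 19.9 FPKM and was not called (adjusted p = 0.094). Of 20 Hippo pathway and TEAD genes only AMOTL2 was called, a share of members close to the 4.88% of all genes that rose, and none was called without DMSO 1 or DMSO 2. At an unadjusted p under 0.05 by limma, 6 of the 20 were higher and 0 lower, against 3200 and 1162 of all 14699 genes.

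TGF-beta ligands bind receptor kinases that act through SMAD proteins, and the ID genes are targets of the related BMP signals. TGFB2, a ligand, was at 10.9 and 14.6 FPKM in DMSO and 52 and 109.8 in dormant cells (2.49 ± 0.46, adjusted p = 0.0154). ID2 was at 2.65, 4.27, 34.3 and 117 FPKM (3.88 ± 0.55, adjusted p = 0.00402). TGFB3 was listed at 0 in both DMSO libraries and at 1.18 and 0.64 FPKM in dormant cells (adjusted p = 0.0449). In all, 6 of 18 genes rose and none fell (8 and 0 without dormant 2, and 13 and 0 at an unadjusted p under 0.05). The rises numbered 0 without DMSO 1, 2 without DMSO 2 and 3 with median of ratios scaling. They also held INHBA, an activin chain, the receptor BMPR1A and SKIL, a SMAD repressor induced by TGF-beta, which missed the threshold without dormant 2 (adjusted p = 0.053). The receptors TGFBR1 and TGFBR2 and the SMAD genes tested were not called.

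Of 11 mesenchymal genes, 4 rose and none fell (5 and 0 without dormant 2, and 6 and 1 at an unadjusted p under 0.05), and none was called without DMSO 1 or DMSO 2. CDH2, the cadherin of mesenchymal and neural cells, was at 2.13, 5.49, 16.9 and 98 FPKM (3.23 ± 0.68, adjusted p = 0.0269). ZEB1, a repressor of epithelial genes, stayed low, at 0.19, 0, 1.05 and 1.65 FPKM (adjusted p = 0.0213), and its difference was -0.06 with GC and length trends removed. VIM, the intermediate filament of mesenchymal cells, was already at 217 and 184 FPKM in DMSO and at 504 and 654 in dormant cells (1.52 ± 0.57, adjusted p = 0.118). SPARC was also among the rises. CNN1 and CALD1, which bind actin in contractile cells, rose as well, with FILIP1L and NEDD9. Among 21 genes of the actin cytoskeleton these were the 4 rises, and none fell. At an unadjusted p under 0.05 by limma there were 5 higher and 1 lower, against 3200 and 1162 of all 14699 genes. The median of this list was 0.614 in dormant 1 and -0.294 in dormant 2. CNN1 went from 0.17 and 0 FPKM to 6.46 and 11.3 (adjusted p = 0.000396).

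Epithelial genes gave no call in either direction by limma in 20 tested, and 2 were higher and 2 lower at an unadjusted p under 0.05. CDH1, the epithelial cadherin, was at 38.4, 83.4, 51.8 and 25.9 FPKM (adjusted p = 0.483). EPCAM, an epithelial adhesion protein, was at 194, 286, 209 and 429 FPKM. The keratins divided the dormant libraries: KRT19 was at 2446, 2533, 363 and 9.91 FPKM and KRT8 at 941, 841, 686 and 5.87. Without dormant 2 none of the 20 was called either.

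**Figure D4:**
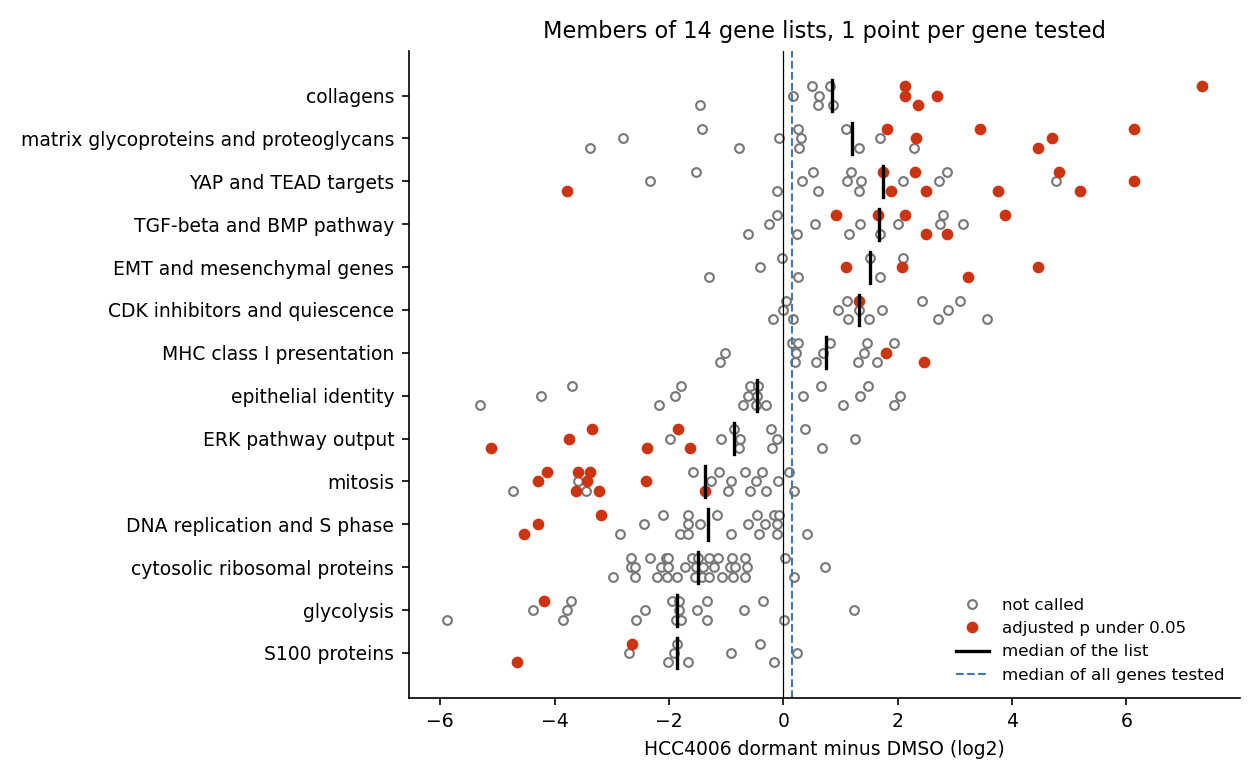
Difference of each tested gene (dormant minus DMSO, log2) in 14 gene lists, 1 point per gene, filled red where the adjusted p was under 0.05, with each list's median as a black bar and the median of all tested genes (0.155) as a dashed line. Matrix, YAP target and TGF-beta lists have medians from 0.84 to 1.75, and division, ribosomal protein, glycolysis and S100 lists from -1.86 to -1.31, the latter with few red points outside mitosis.

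The largest fall was that of CEACAM6, an adhesion glycoprotein abundant in lung and gut carcinomas. It was at 2078 and 2691 FPKM in DMSO and at 45.5 and 23.8 in dormant cells (-6.12 ± 0.46, adjusted p = 0.00023). CEACAM5, the carcinoembryonic antigen, fell from 12.4 and 18.3 FPKM to 0.34 and 0.27 (-3.62 ± 0.32, adjusted p = 0.000396). Both dormant libraries stood together far under the controls. PRSS3, a trypsin, was at 98.3, 109, 4.05 and 0.38 FPKM (-5.31 ± 0.57, adjusted p = 0.0013). MALL, a protein of membrane rafts, was at 245.5, 245.5, 24 and 5.6 FPKM (-4.26 ± 0.84, adjusted p = 0.0203). CEACAM, PSG and trypsin genes have near-identical relatives, among which reads could be split.

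CEACAM1, of the same family, was at 6.51, 7.3, 2.99 and 15.3 FPKM and was not called. The pregnancy-specific glycoproteins, placental relatives of the CEACAM proteins, moved the other way. PSG5 was at 25.7, 41.3, 921 and 612 FPKM (4.48 ± 0.44, adjusted p = 0.000756). PSG8, PSG4 and PSG9 rose too, which made 4 rises and 2 falls among 12 genes of both families (5 and 2 without dormant 2, and 1 and 2 without DMSO 1).

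S100A2, a calcium-binding protein of basal and squamous epithelium, was at 6388 and 4777 FPKM in DMSO and at 274 and 175 in dormant cells (-4.65 ± 0.48, adjusted p = 0.000952). S100A14 fell as well, at 343, 361, 123 and 24.5 FPKM (adjusted p = 0.0457). These were the 2 falls among 11 S100 genes, with no rise (3 falls without dormant 2, and 7 falls and 0 rises at an unadjusted p under 0.05). Without DMSO 1, DMSO 2 or any library of the other lines, 1 fell. The median was -1.86, and was -0.852 in dormant 1 and -2.74 in dormant 2.

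Genes of the lung lineage were low throughout, and 2 of 14 rose and 2 fell, with 0 and 1 without DMSO 1. SCGB3A1, a secretoglobin of airway cells, was at 5.54 and 6.6 FPKM in DMSO and listed at 0 in both dormant libraries (adjusted p = 5.82e-05). SFTPB, a surfactant protein, fell from 2.13 and 1.46 FPKM to 0 and 0.175 (adjusted p = 0.0368). NKX2-1, the transcription factor of lung epithelium, was at 1.34, 2.78, 5.81 and 7.8 FPKM (1.38 ± 0.33, adjusted p = 0.0395). SFTPD, another surfactant protein, went from 0.05 and 0.07 FPKM to 1.33 and 1.29 (adjusted p = 0.00451). SCGB3A1 and SFTPD passed the filter on low values only through the group where they were high, so their calls are a description. The fall that remained without DMSO 1 was that of SCGB3A1.

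Several cell division genes fell. CCNB1, the cyclin that drives entry into mitosis, was at 706 and 991 FPKM in DMSO, 149.5 in dormant 1 and 39.2 in dormant 2 (-3.43 ± 0.61, adjusted p = 0.013). PLK1, a mitotic kinase, was at 210.0, 209.6, 21 and 4.35 FPKM (-4.28 ± 0.98, adjusted p = 0.0362), and missed the threshold without dormant 2 (adjusted p = 0.069). UBE2C, which marks mitotic proteins for destruction, was at 237, 297, 54.1 and 3.26 FPKM (-4.12 ± 0.95, adjusted p = 0.0367). The order was the same in each of these genes, with dormant 2 lowest and dormant 1 between it and the controls.

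Of 25 mitosis genes, 9 fell and none rose (8 and 0 without dormant 2, and 16 and 0 at an unadjusted p under 0.05), with a median of -1.36. No member was called without DMSO 1 or without DMSO 2, and 1 fell with no filter on low values. With median of ratios scaling 14 fell, and with GC and length trends removed 18 did. Of all 14699 genes tested, 4521 were under the DMSO mean in dormant 1 and 7509 in dormant 2. All 25 mitosis genes were under it in dormant 1, and 19 in dormant 2. TOP2A, a topoisomerase of dividing cells, was one that was not: it was at 16.7, 35.6, 6.79 and 94.1 FPKM. HMMR, CENPE, KIF11 and MAD2L1 were also lower in dormant 1 than in both controls and higher in dormant 2 than in at least 1 of them. MKI67, the proliferation marker Ki-67, was at 8.57, 15.6, 5.33 and 5.55 FPKM (-0.97 ± 0.39, adjusted p = 0.14), under both controls in both libraries without passing the test.

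The promoter of CCNB1 (chr5:69166900-69167149, plus strand, GRCh38.p14) is shown as an example of this list, with the CCAAT box that the factor NF-Y binds in capitals, 87 and 55 bases before the RefSeq start.
CCNB1: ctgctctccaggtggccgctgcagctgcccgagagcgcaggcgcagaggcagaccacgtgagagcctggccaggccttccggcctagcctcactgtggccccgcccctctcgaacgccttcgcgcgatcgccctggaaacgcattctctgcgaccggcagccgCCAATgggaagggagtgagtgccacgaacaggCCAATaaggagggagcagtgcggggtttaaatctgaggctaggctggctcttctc
CCAAT or its reverse ATTGG was found in 18 of the 20 mitosis promoters that matched RefSeq (90%) and in 9021 of all 27305 promoters of that length (33%), as a description of the letters.

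Among 22 genes of DNA replication, 3 fell and none rose (2 and 0 without dormant 2, and 10 and 0 at an unadjusted p under 0.05). None was called without DMSO 1, DMSO 2 or any single PC9 library, or with no filter on low values, and 7 fell with GC and length trends removed. RRM2, which supplies deoxynucleotides, was at 416, 426, 69.8 and 3.71 FPKM (-4.53 ± 1.06, adjusted p = 0.0386). TK1, a thymidine kinase of S phase, was at 232, 269, 40.6 and 2.93 FPKM (adjusted p = 0.0497), and its adjusted p was 0.10 without dormant 2. The MCM helicase genes, 6 in number, were not called.

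Of the genes that go with growth arrest, YPEL3, a gene tied to quiescence and senescence, was at 1.57, 1.79, 5.79 and 5.69 FPKM (1.33 ± 0.31, adjusted p = 0.0364), and was the 1 rise among 16, with no fall (5 and 0 without dormant 2, and 9 and 0 at an unadjusted p under 0.05). That share is close to the 4.88% of all genes that rose, and the call was lost without DMSO 1, DMSO 2, any PC9 library or either dormant HCC827 library, and with median of ratios scaling or quantile normalization. CDKN1B, the CDK inhibitor p27, was at 0.375 and 0.37 FPKM in DMSO, 2.99 in dormant 1 and 65.4 in dormant 2. It missed the threshold (adjusted p = 0.061). CDKN1A, the CDK inhibitor p21, was at 7.39, 8.93, 11.9 and 7.22 FPKM (adjusted p = 0.83).

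Of the ERK-induced genes, DUSP6, the phosphatase that inactivates ERK, was at 78.4 and 98.7 FPKM in DMSO and at 0.255 and 4.25 in dormant cells (-5.12 ± 0.71, adjusted p = 0.00383). Here dormant 1 was the lower library. PHLDA1, an early growth factor response gene, was at 11.4, 36.7, 0.585 and 0.635 FPKM (-3.75 ± 0.48, adjusted p = 0.00292). CCND1, cyclin D1, was at 88.1, 100.2, 10.3 and 6.79 FPKM (-3.34 ± 0.65, adjusted p = 0.0186). ETV5, an ERK-induced transcription factor, was at 3.48, 5.18, 0.75 and 0.225 FPKM (-1.84 ± 0.34, adjusted p = 0.0145).

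Of 17 genes of this list, 6 fell and none rose, with FOSL1 and DUSP4 as the other falls. At an unadjusted p under 0.05 there were 10 and 0, and without dormant 2 there were 9 falls and 1 rise. Without DMSO 1 or DMSO 2 there were 2 falls. SPRY2, a feedback inhibitor of receptor kinases, differed between the dormant libraries, at 2.86, 4.37, 0.4 and 10.1 FPKM. ETV4 did likewise, at 1.84, 2.02, 0 and 5.59. FOSL1 missed the threshold without dormant 2 (adjusted p = 0.08).

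EGFR itself was at 9.33, 14.1, 7.07 and 23.6 FPKM, with dormant values on both sides of the controls (0.17 ± 0.57, adjusted p = 0.864). MET, a receptor known for bypass resistance, was at 9.25, 18.5, 5.87 and 10.2 FPKM (adjusted p = 0.351). AREG, a ligand of EGFR, fell from 3.89 and 5.64 FPKM to 0.4 and 0 (-2.27 ± 0.42, adjusted p = 0.0146), and was the 1 call among 18 receptors and ligands. It was lost without DMSO 1 or DMSO 2. At an unadjusted p under 0.05, 6 of the 18 were higher and 1 lower, against 3200 and 1162 of all 14699 genes. In dormant 1, GAS6, the ligand of AXL, was at 99.5 FPKM against 12 and 11.8 in DMSO and 16.5 in dormant 2.

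Cell death is set by the balance of BCL2 family members, of which BH3-only proteins such as BMF and BIM promote death and MCL1 protects. BMF was at 0.16 and 0.525 FPKM in DMSO and at 4.92 and 4.66 in dormant cells (2.12 ± 0.25, adjusted p = 0.00218). Its dormant libraries nearly coincided. BCL2L11, which encodes BIM, was at 0.505, 0.925, 2.65 and 3.3 FPKM, above both controls in both libraries, and did not pass (1.22 ± 0.34, adjusted p = 0.0651). PMAIP1, the BH3-only protein NOXA, was at 8.52, 18.1, 21.6 and 109.7 FPKM (adjusted p = 0.11).

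BMF was the 1 rise among 9 pro-apoptotic genes tested, with no fall by limma, and 3 and 0 at an unadjusted p under 0.05. The median of these 9 was 0.056, and its sign turned under 2 scalings (-0.15 with median of ratios, -0.01 with quantile normalization). On the protective side, BIRC3, an inhibitor of apoptosis protein, was at 0.94, 1.88, 17.6 and 21.6 FPKM (3.12 ± 0.49, adjusted p = 0.00706). MCL1 was at 5.46, 9.55, 24 and 43.5 FPKM (2.02 ± 0.48, adjusted p = 0.0397), and missed the threshold without dormant 2 (adjusted p = 0.055). BCL2L1, which encodes BCL-XL, was at 10.6, 10, 7.47 and 1.18 FPKM and was not called. In all, 2 of 8 protective genes rose and none fell (1 and 0 without dormant 2, and 4 and 0 at an unadjusted p under 0.05). No protective gene was called without DMSO 1 or with GC and length trends removed, where the median of the 8 went from 1.05 to 0.0316.

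Of the glycolysis genes, LDHA, which makes lactate, was at 4233, 4830, 832 and 73.1 FPKM (-4.19 ± 0.90, adjusted p = 0.0285). It was the 1 call among 20 glycolysis genes, of which 11 were lower and none higher at an unadjusted p under 0.05. The call was lost with DMSO 1, DMSO 2 or any library of the other lines left out, and with quantile normalization. GAPDH missed the threshold with dormant 2 (adjusted p = 0.106) and without it (adjusted p = 0.12). The median of the 20 was -0.948 in dormant 1 and -3.18 in dormant 2.

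For ribosomal protein genes the dormant libraries also lay apart. None of 35 was called by limma, with 17 lower and 0 higher at an unadjusted p under 0.05. Their median was -0.453 in dormant 1 and -2.51 in dormant 2. RPL5, a large subunit protein, was at 1333, 1140, 934 and 4509.7 FPKM, above both controls in dormant 2 and below them in dormant 1. Nuclear genes of oxidative phosphorylation had no call among 27 (1 higher and 5 lower at an unadjusted p under 0.05), with medians of -0.291 and -1.65 in dormant 1 and dormant 2. The part of base composition and length in these gaps was not tested, and the medians of the glycolysis and ribosomal lists were -1.6 and -1.26 with both trends removed.

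G0S2, an inhibitor of the lipase that opens lipid droplets, was at 135.5 and 179 FPKM in DMSO and at 10.3 and 6.79 in dormant cells (-4.06 ± 0.51, adjusted p = 0.00272). ANGPTL4, a secreted inhibitor of lipoprotein lipase, was at 12.5, 12.9, 0.31 and 0.205 FPKM (-3.44 ± 0.52, adjusted p = 0.00565). GPAT3, an acyltransferase of triglyceride synthesis, was at 4.86, 6.26, 0.125 and 0 FPKM (adjusted p = 0.0133). ABHD4, a lipase of membrane lipids, rose to 79.9 and 26 FPKM from 3.37 and 4.93 (adjusted p = 0.0135). These were the 3 falls and 1 rise among 17 lipid genes, the same numbers as without dormant 2, and without DMSO 1 there were 1 fall and no rise.

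Of the degradation pathways, autophagy and the lysosome were examined. GABARAPL1, an autophagosome protein, was at 1.78, 2.87, 45.6 and 23.8 FPKM (3.37 ± 0.47, adjusted p = 0.00383) and was the 1 call among 18 autophagy genes (5 rises without dormant 2, and 6 higher and 0 lower at an unadjusted p under 0.05). A share of 1 in 18 is close to the 4.88% of all genes that rose, and the call was lost without DMSO 1. RETREG1, a receptor for autophagy of the endoplasmic reticulum, was at 0.125, 0.16, 35.5 and 58.9 FPKM (5.35 ± 0.42, adjusted p = 0.000262). Of 24 lysosome genes, 23 were above the DMSO mean in dormant 1 and 8 in dormant 2, where 10034 and 7049 of all 14699 genes were. CTSS, a cathepsin, alone was called, at 3.86, 7.5, 36.8 and 24.4 FPKM, a share of members below the 4.88% of all genes. That call was lost without DMSO 1, DMSO 2, any PC9 library or either dormant HCC827 library, and with GC and length trends removed. The lysosome median was 0.971 in dormant 1 and -1.26 in dormant 2, and its sign in the mean of both varied with the scaling.

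In antigen presentation, all 16 genes of MHC class I presentation were above the DMSO mean in dormant 1, with a median of 1.59, and 7 were in dormant 2, with a median of -0.325. Of all 14699 genes tested, 10034 were above it in dormant 1 and 7049 in dormant 2. HLA-B, a class I heavy chain, was at 65.9, 58.5, 265 and 219 FPKM and was not called (adjusted p = 0.10). HLA-E, another heavy chain, was at 46.5, 54.6, 139.9 and 3.61. ERAP2, a peptide-trimming enzyme, rose in both, at 4.56, 8.17, 23 and 24.5 FPKM (1.79 ± 0.43, adjusted p = 0.0396), with HLA-F as the other rise (adjusted p = 0.052 without dormant 2). There was no fall (6 higher and 0 lower at an unadjusted p under 0.05, against 3200 and 1162 of all 14699 genes). Both rises were lost with each of 2 other scalings (median of ratios and quantile), and without DMSO 1, DMSO 2, any PC9 library or either dormant HCC827 library.

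Of 24 interferon-stimulated genes, 3 rose and none fell. At an unadjusted p under 0.05 there were 6 higher and 2 lower, against 3200 and 1162 of all 14699 genes. With median of ratios scaling none rose and 1 fell, with quantile normalization none was called, and the median turned from 0.215 to -0.107 and -0.0768. No rise was called without DMSO 1, DMSO 2, any PC9 library or either dormant HCC827 library. IFIH1, a sensor of double-stranded RNA, was at 0.37, 0.875, 2.55 and 13.3 FPKM (2.15 ± 0.53, adjusted p = 0.0453), and MX2 and IFIT3 were the others. UBD, a ubiquitin-like protein induced by inflammatory cytokines, rose from 0.06 and 0.02 FPKM to 101 and 23 (5.57 ± 0.63, adjusted p = 0.00181). TNFAIP6, a secreted hyaluronan-binding protein of inflamed tissue, was listed at 0 in both DMSO libraries and at 25.1 and 33.5 FPKM in dormant cells (adjusted p = 1.65e-05).

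Among 16 complement and acute phase genes, C1S, C1R and CFI rose and none fell. At an unadjusted p under 0.05 there were 3 higher and 2 lower, against 3200 and 1162 of all 14699 genes. No rise was called without DMSO 1 or DMSO 2. C1S, a protease that starts the classical pathway, was at 0, 0.17, 5 and 26.5 FPKM (3.57 ± 0.64, adjusted p = 0.0133). CFB, of the alternative pathway, was at 4.36, 5.83, 60.5 and 4.27. CSF2, a myeloid growth factor, was at 2.73 and 3.28 FPKM in DMSO and listed at 0 in both dormant libraries (adjusted p = 0.00214).

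Several other secreted factors rose. NPPB, which encodes a natriuretic peptide, was at 0.325, 0.35, 54.8 and 19.9 FPKM (4.67 ± 0.48, adjusted p = 0.000955). IGFBP7, which binds insulin-like growth factors, was at 5.79, 11.4, 122 and 1657 FPKM (5.63 ± 0.96, adjusted p = 0.0104), and IGFBP5, of the same family, was listed at 0 in DMSO and at 14.1 and 43.1 FPKM in dormant cells (adjusted p = 0.000516). NTM, a cell adhesion protein of neurons, was at 1.86, 2.73, 84.4 and 2194 FPKM (7.05 ± 1.11, adjusted p = 0.00691). NTM and IGFBP7 were over 10-fold higher in dormant 2 than in dormant 1.

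The labelled cell type was checked against 8 epithelial markers. All 8 were at 1 FPKM or more in each of the 4 libraries, and their summed level was 5402 and 5548 FPKM in DMSO, 2100 in dormant 1 and 521 in dormant 2. Summed levels of 10 fibroblast markers were 3.03, 3.66, 382 and 265 FPKM, and in the dormant libraries nearly all of it was COL1A2. The number at 1 FPKM or more was 1, 2, 3 and 4 in the same order. THY1 was at 1.01, 1.57, 5.26 and 2.37 FPKM, and PDGFRB at 0 in 3 libraries and 1.13 in dormant 2. COL3A1 and POSTN were listed at 0 in all 4 libraries, and DCN and FAP at 0 in both dormant libraries. All 3 fibroblast markers that were tested, COL1A1, COL1A2 and THY1, were higher in dormant cells with no overlap, as were 30.4% of all genes. The part of fibroblasts in these results was not tested. Summed levels of 10 leukocyte markers were 9.61, 12.5, 21.4 and 0.75 FPKM. CD68, a lysosomal protein, made up nearly all of it in the first 3 libraries and was listed at 0 in dormant 2, where ITGAM was at 0.61 and PTPRC at 0.14. Summed endothelial markers were at most 0.285 FPKM except for 8.75 in dormant 2, from TIE1 and VWF, and CDH5 was at 0 in both dormant libraries. Summed neuroendocrine markers were 1.08 to 1.19 FPKM and 9.2 in dormant 2, of which NCAM1 was 7.92.

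To ask what set HCC4006 apart, its difference was tested against the mean difference of PC9 and HCC827. The difference lay above that of the other lines in 68 of 14699 genes (0.463%) and below it in 56 (0.381%). With dormant 2 and the second HCC827 DMSO library, which also stood apart from its replicate, both left out, the counts were 437 and 190. COL1A2 differed by 7.23 ± 0.44 (adjusted p = 0.000129): it was at 0.408 ± 0.35 FPKM (SD, n = 2) in dormant PC9 and 0.0125 ± 0.0106 in dormant HCC827. LOX differed by 5.17 ± 0.65 (adjusted p = 0.00891), at 2.34 ± 0.739 FPKM (SD, n = 2) in dormant PC9 and 0.19 ± 0.0495 in dormant HCC827. CTGF differed by 3.67 ± 0.61 (adjusted p = 0.0279), from differences of 0.62 in PC9, 2.43 in HCC827 and 5.19 in HCC4006. TNFAIP6 was listed at 0 in all 8 libraries of the other lines.

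On the lower side, CEACAM6 differed by -5.47 ± 0.57 (adjusted p = 0.00277). Its difference was -3.63 in PC9, 2.33 in HCC827 and -6.12 in HCC4006. ALPP, a placental alkaline phosphatase, differed by -5.12 ± 0.51 (adjusted p = 0.00217). In PC9 it rose from 4.16 ± 0.141 to 274 ± 106 FPKM (SD, n = 2) and in HCC827 from 0.485 ± 0.41 to 26.2 ± 0.654, while the HCC4006 levels were 0.105, 0.19, 0.05 and 0. KLK10, a secreted protease, rose by 4.47 in HCC827 and differed by 0.67 in PC9 and -2.41 in HCC4006 (-4.98 ± 0.69, adjusted p = 0.0135). COL1A2, TNFAIP6, ALPP, CEACAM5, CEACAM6 and SCGB3A1 were called in this test with each of the 12 libraries left out in turn, as the only ones of 22 named genes. TNFAIP6 and SCGB3A1 were at 0 in the other lines and passed the filter on low values only through the HCC4006 group where they were high. For both genes the repeated calls are therefore no sign of stability.

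**Figure D5:**
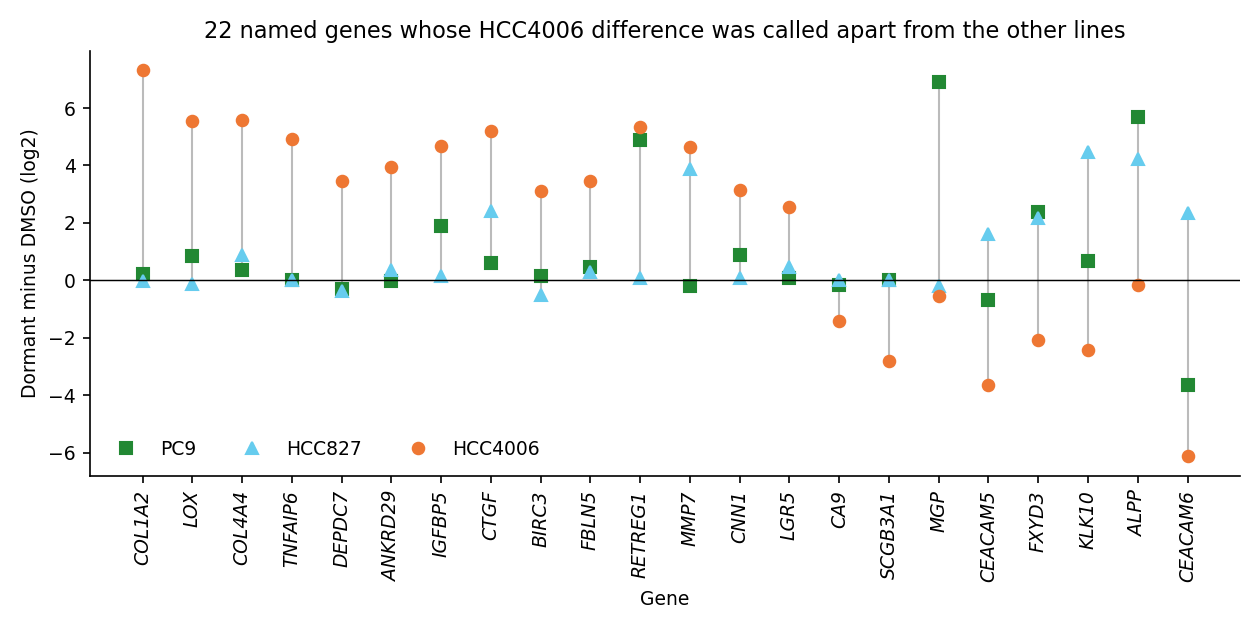
Difference (dormant minus DMSO, log2) in PC9 (squares), HCC827 (triangles) and HCC4006 (circles) for 22 named genes whose HCC4006 difference was called above (left) or below (right) the mean of the other lines. COL1A2 is at 7.32 in HCC4006 against 0.21 and -0.02, and ALPP at -0.16 against 5.68 and 4.22.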

How the data were processed

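Stranded mRNA libraries were made from TRIzol RNA, per the labels' protocols. The authors deposited FPKM values for 57905 genes in 24 columns, 2 for each of 12 libraries. Per the submitters' processing notes, STAR 2.5.1b, Cufflinks 2.2.1, DESeq2 1.10.1, hg19 and GRCh37 were used, with no role given. What separates the columns of a library is not given in the sources used here, and both were averaged. No counts were analysed, so absolute depth is unknown. The 14699 genes that reached 1 FPKM in 2 or more libraries were fitted as log2(FPKM + 1) with limma 3.58.1 in R 4.3.3 (6 groups, eBayes with trend, 6 residual and 3.84 prior degrees of freedom, two-sided). The fit assumes that each gene has the same spread in all groups. Array quality weights, low where replicates differ more, were 0.0935 for both dormant HCC4006 libraries and 0.422 to 4.51 for the others. Where the spread of HCC4006 is larger than the shared one, its standard errors and p-values are too small. The 4 HCC4006 libraries alone left no call. The procedure was tested on simulated data with the same spread in all groups, which cannot show the effect of unequal spread.

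Members and lists were chosen with earlier results of these data known. Named were the 12 largest and 12 smallest called differences, up to 4 called members per list, the 6 largest and 6 smallest called differences from the other lines, and 21 single genes. Symbols turned into dates (27), gene lengths and GC content came from GENCODE 29, and promoters from RefSeq (GRCh38.p14). AGPAT9, ACACA, IL8, CCL5, PSMB3 and 3 histone genes of the lists are not analysed here, and some list members are not reported here. Python 3.11.15, pandas 2.3.3, numpy 2.4.6 and matplotlib 3.10.9 were used.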

Additional observations from a re-analysis of the deposited data

Results flagged for a closer look

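In 22 named genes the difference between dormant and DMSO cells was called unequal in HCC4006 and in the mean of PC9 and HCC827, by limma with Benjamini-Hochberg adjustment over 14699 genes. Values are HCC4006 minus the mean of the other lines, in log2 units of FPKM + 1. The matrix genes above the other lines were COL1A2 (7.23), LOX (5.17), COL4A4 (4.96) and FBLN5 (3.06), with the protease gene MMP7 (2.79). Other secreted factors above were TNFAIP6 (4.91), CTGF (3.67) and IGFBP5 (3.67). The remaining genes above were DEPDC7 (3.82), ANKRD29 (3.78), BIRC3 (3.29), RETREG1 (2.86), CNN1 (2.65) and LGR5 (2.27).

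Genes below the other lines were CEACAM6 (-5.47), ALPP (-5.12), KLK10 (-4.98), FXYD3 (-4.33), CEACAM5 (-4.09), MGP (-3.90), SCGB3A1 (-2.82) and CA9 (-1.34). In MGP the value came from PC9, where the level went from 20 ± 2.32 to 2546 ± 235 FPKM (SD, n = 2). RETREG1 rose in PC9 too (4.89), with 0.09 in HCC827. MMP7 rose in HCC827 too (3.88, against 4.63 in HCC4006), with -0.20 in PC9. The difference of FXYD3 was 2.38 in PC9, 2.16 in HCC827 and -2.06 in HCC4006. TNFAIP6 and SCGB3A1 were listed at 0 in every library of the other lines, so their values depend on the 1 added to FPKM. They, COL4A4, FBLN5, ANKRD29, CNN1 and CA9 passed the filter on low values only through the HCC4006 group where they were high. The calls of these genes against the other lines are therefore given as a description.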

How the results depend on the processing

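The counts of genes that rose and fell (718 and 174) and that lay above and below the other lines (68 and 56) moved with most choices, in limma throughout. Rises and falls were 459 and 115 with a pseudocount of 0.1, 336 and 110 with no filter, 418 and 126 with a filter of 5 FPKM, 334 and 287 with median of ratios scaling, 354 and 292 with quantile normalization, 17 and 7 with array quality weights, and 0 and 0 with the 4 HCC4006 libraries alone (583 and 333 at an unadjusted p under 0.05). With alternatives chosen after seeing the data they were 2187 and 547 without both libraries that stood apart, and 467 and 385 with GC and length trends removed, where ITGA1 (-0.167) and ZEB1 (-0.0592) turned direction. Genes above and below the other lines were 14 and 16 with the pseudocount of 0.1, 25 and 31 with no filter, 2 and 0 with array quality weights, 437 and 190 without both libraries and 45 and 55 without the trends. The share of calls that rose was 80.5%, and 53.8%, 54.8% and 54.8% with median of ratios, quantile normalization and trend removal. With a library left out, rises ranged from 76 to 4580, falls from 49 to 4027, and genes above and below the other lines from 7 to 4022 and from 9 to 4313. The highest counts came without dormant 1 and the lowest count of rises without DMSO 1, and each of the 12 libraries moved the count of rises by over 1.5 times: it was 288 to 327 without a PC9 library, 331 to 447 without an HCC827 library, 234 without DMSO 2 and 1270 without dormant 2. A lone library is then assumed to vary like the other groups. With the replicate number as a block, 413 rose and 73 fell, and 7 and 4 lay above and below the other lines. Same-numbered libraries deviated from their group means with correlations of 0.0906 in PC9, 0.0372 in HCC827 and 0.168 in HCC4006, so the numbers were not taken to pair samples. Of 112 named genes called, the call was kept by 0 with the HCC4006 libraries alone, 16 with array quality weights, 35 without DMSO 1, 52 without DMSO 2, 64 with no filter, 67 with the block, 88 with the pseudocount of 0.1, 89 with median of ratios scaling and 112 without both libraries. No mitosis or replication gene was called with the block. The cause of these moves was not tested. Depth was not known in counts and limits low genes in dormant 2 most.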

Other observations

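Metallothioneins, small proteins that bind zinc and copper, held several falls in dormant HCC4006 cells: 3 of 7 fell and none rose (4 and 0 without dormant 2, and 5 and 0 at an unadjusted p under 0.05), with none without DMSO 1 or DMSO 2. MT2A was at 1850.3 and 1223 FPKM in DMSO and at 315 and 75.8 in dormant cells (-3.27 ± 0.66, adjusted p = 0.0219). These genes are near-identical copies, so reads could be split among them. Of 10 clustered histone genes, HIST1H2AC and HIST1H2BK rose and HIST1H4C fell. HIST1H2AC was at 0.675, 1.71, 11.7 and 47.4 FPKM (adjusted p = 0.00973), and HIST1H4C at 526, 529.8, 159 and 41.9 (adjusted p = 0.0405). HMGA1, a chromatin protein of growing cells, was at 15, 15.4, 1.52 and 1.95 FPKM (-2.57 ± 0.38, adjusted p = 0.00527).

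CYP1A1, which oxidizes foreign compounds, was at 2.12, 2.08, 53.1 and 18.6 FPKM (3.40 ± 0.50, adjusted p = 0.00527), and CYP1B1 and AHRR were called as well. With AKR1C3 they made 4 rises and no fall among 19 aldehyde dehydrogenase and xenobiotic genes. With median of ratios scaling there were 2 rises and 1 fall. At an unadjusted p under 0.05 by limma there were 5 higher and 2 lower, against 3200 and 1162 of all 14699 genes. The median of this list went from 0.295 to -0.0593 with GC and length trends removed. LGR5, a receptor that strengthens Wnt signals, was at 3.89, 4.11, 20.7 and 38.1 FPKM (2.55 ± 0.33, adjusted p = 0.0031), and the ligand WNT5A at 0.12, 0.265, 3.27 and 14.46 (2.77 ± 0.47, adjusted p = 0.0106). EGLN3, an oxygen-sensing hydroxylase, was at 2.38, 3.59, 44.5 and 141 FPKM (4.35 ± 0.55, adjusted p = 0.0027), while CA9, another hypoxia gene, went from 1.72 and 2.01 to 0.14 and 0 (adjusted p = 0.00214). KDM5B, a histone demethylase linked to drug tolerance, was at 3.72, 5.29, 15.5 and 32.5 FPKM (2.11 ± 0.45, adjusted p = 0.027). It was the 1 call among 10 chromatin regulators of drug tolerance. At an unadjusted p under 0.05 by limma, 5 were higher and 0 lower, against 3200 and 1162 of all 14699 genes. The call was lost with median of ratios scaling or quantile normalization. It was also lost without DMSO 1, DMSO 2, any PC9 library or either dormant HCC827 library.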
